A study of Mus musculus with 16 samples.

Results

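The genes described here are 43 type I interferon-stimulated genes, named by symbol from what is known of the interferon response. Of the 43, 40 were measured by a probe set annotated with 1 gene symbol, among 19935 genes measured that way. Oas1g and Isg15 share their probe sets with other genes and Ifi44 was not found among the annotated symbols, so no value is given for these 3. By role, the measured genes are 6 of 7 oligoadenylate synthetases (OAS family), 3 IFIT proteins, 9 other antiviral effectors, 4 nucleic acid sensors, 4 transcription factors, 6 of 7 modifiers that act through ISG15, ubiquitin or ADP-ribose, and 8 of 9 other induced genes. Livers were taken from males whose mixed background was Sv129/C57Bl/6, and their RNA was hybridised to whole-transcript arrays of Affymetrix, with 1 array for each animal. The groups were 3 PPARβ/δ (Ppard) knockout mice fasted for 24 h and 4 knockout mice fed. They were set against 5 wild-type mice fasted for 24 h and 4 wild-type mice fed. The sources used here do not state the age of the mice, the deleted part of Ppard or the descent of the wild-type animals.

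Type I interferons bind a shared receptor, whose kinases activate STAT2. STAT2 and IRF9 are parts of a complex that binds the interferon-stimulated response element, the ISRE, in the promoters of its target genes. The products cut or trap viral RNA, block entry and budding, sense foreign nucleic acid, or raise and damp the signal itself. In liver both hepatocytes and Kupffer cells, the resident macrophages, respond to interferon, and PPARβ/δ is a nuclear receptor for fatty acids.

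Array medians lay between 8.08 and 8.61 on the intensity scale. The labels call the arrays biological replicates, and p-values measure the spread between these mice only. Ppard had log2 intensities of 4.36 to 4.58 in knockout fasted and 4.45 to 5.00 in knockout fed mice, against 4.40 to 4.67 in wild-type fasted and 4.78 to 5.50 in wild-type fed mice. Its knockout minus wild-type difference did not pass in fed mice (-0.39 ± 0.15, adjusted p = 0.266) or in fasted mice (-0.08 ± 0.16, adjusted p = 0.908). As the deleted part is not given, this value checks nothing about the genotype. Knockout fed mice 1 and 4 stood apart in 12 acute phase genes, with mean log2 deviations of 1.24 and 2.47 from the average of all mice, against -0.91 to 0.76 in the other 14 mice. The 0.76 was that of knockout fed mouse 3, while mice of the other groups had at most 0.34. Wild-type fasted mouse 5 stood apart in 7 pancreas genes, at 2.33 against at most 0.24 elsewhere. Most calls and counts that rest on knockout fed mice are therefore also given without mice 1 and 4. Knockout fed means then come from the 2 mice left. Of 8 hepatocyte and 13 Kupffer cell and macrophage genes none was dim, that is under the 40th percentile of mean signal (log2 2.79). In bulk liver, fewer cells of a type and less RNA per cell cannot be told apart.

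The ISRE was looked for in the promoters because interferon-stimulated genes are known to respond through the complex that binds it. RefSeq promoter windows of the GRCm38.p6 assembly, from 250 bases before to 50 bases after each start, were matched to 33 of the 43 genes. An ISRE was taken as GAAA, any 2 bases and GAAA again, read on both strands, and was found in 16 of these 33 genes (48.5%), against 3.99% of 27025 genes and 3.44% of 32851 windows. The GAS element, TTC, any 3 bases and GAA, which reads the same on both strands, was found in 9 of 33 (27.3%), against 9.55% of genes and 8.3% of windows. In Bst2 and Ifitm3 a GAS match overlapped an ISRE match. A match is a string of letters in the window and not a measured binding site. The stretches below belong to genes that passed the test in at least 1 comparison, each given 5′ to 3′ on the gene's own strand with the ISRE match in capitals. Overlapping matches run together. The Ifit1 stretch, with 2 separate matches between 104 and 76 bases before the start, is chr19:34640760-34640838 on the plus strand.
Ifit1: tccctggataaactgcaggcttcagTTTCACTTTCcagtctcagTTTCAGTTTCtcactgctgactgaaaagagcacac
The Rsad2 stretch, with 1 match, is chr12:26456538-26456597 on the minus strand.
Rsad2: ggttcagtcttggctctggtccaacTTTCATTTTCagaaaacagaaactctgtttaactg
The Bst2 stretch, with 2 overlapping matches, is chr8:71537562-71537627 on the minus strand.
Bst2: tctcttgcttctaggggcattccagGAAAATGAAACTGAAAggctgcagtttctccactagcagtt
The Oas3 stretch, with 1 match, is chr5:120777700-120777759 on the minus strand.
Oas3: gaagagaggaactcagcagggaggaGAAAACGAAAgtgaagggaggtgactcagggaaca
The Stat2 stretch, with 1 match, is chr10:128270251-128270310 on the plus strand.
Stat2: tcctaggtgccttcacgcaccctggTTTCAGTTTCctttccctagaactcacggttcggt
The Trim30a stretch, with 1 match, is chr7:104465195-104465254 on the minus strand.
Trim30a: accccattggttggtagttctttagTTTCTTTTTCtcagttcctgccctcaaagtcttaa
Ifit1, Rsad2, Stat2 and Trim30a carry the match in the reverse reading, TTTC, any 2 bases and TTTC, and Bst2 and Oas3 in the forward reading.

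Across the 40 genes the 4 groups took a common order, with knockout fed livers highest and wild-type fasted livers lowest. The knockout fed mean was the highest of the 4 in 38 genes, the wild-type fasted mean the lowest in 33, and both held in 32. The knockout fed mean was still the highest in 36 genes with knockout fed mice 1 and 4 left out. Every knockout fed mouse lay above every other mouse in 18 genes, or in 22 with these 2 mice left out. Every wild-type fasted mouse lay below every other mouse in 12. The share of all genes separated in these ways was not counted. A group of 2 mice is also separated more easily than a group of 4. Knockout fasted and wild-type fed mice lay close together, with the knockout fasted mean above the wild-type fed mean in 22 genes and below it in 18. The mean log2 deviation over the 40 genes was -0.03 to 0.03 in knockout fasted and 0.40 to 0.81 in knockout fed mice, against -0.55 to -0.23 in wild-type fasted and -0.07 to 0.00 in wild-type fed mice. Of the 40 genes, 29 passed the test in at least 1 of the comparisons of genotype or feeding.

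**Figure D1:**
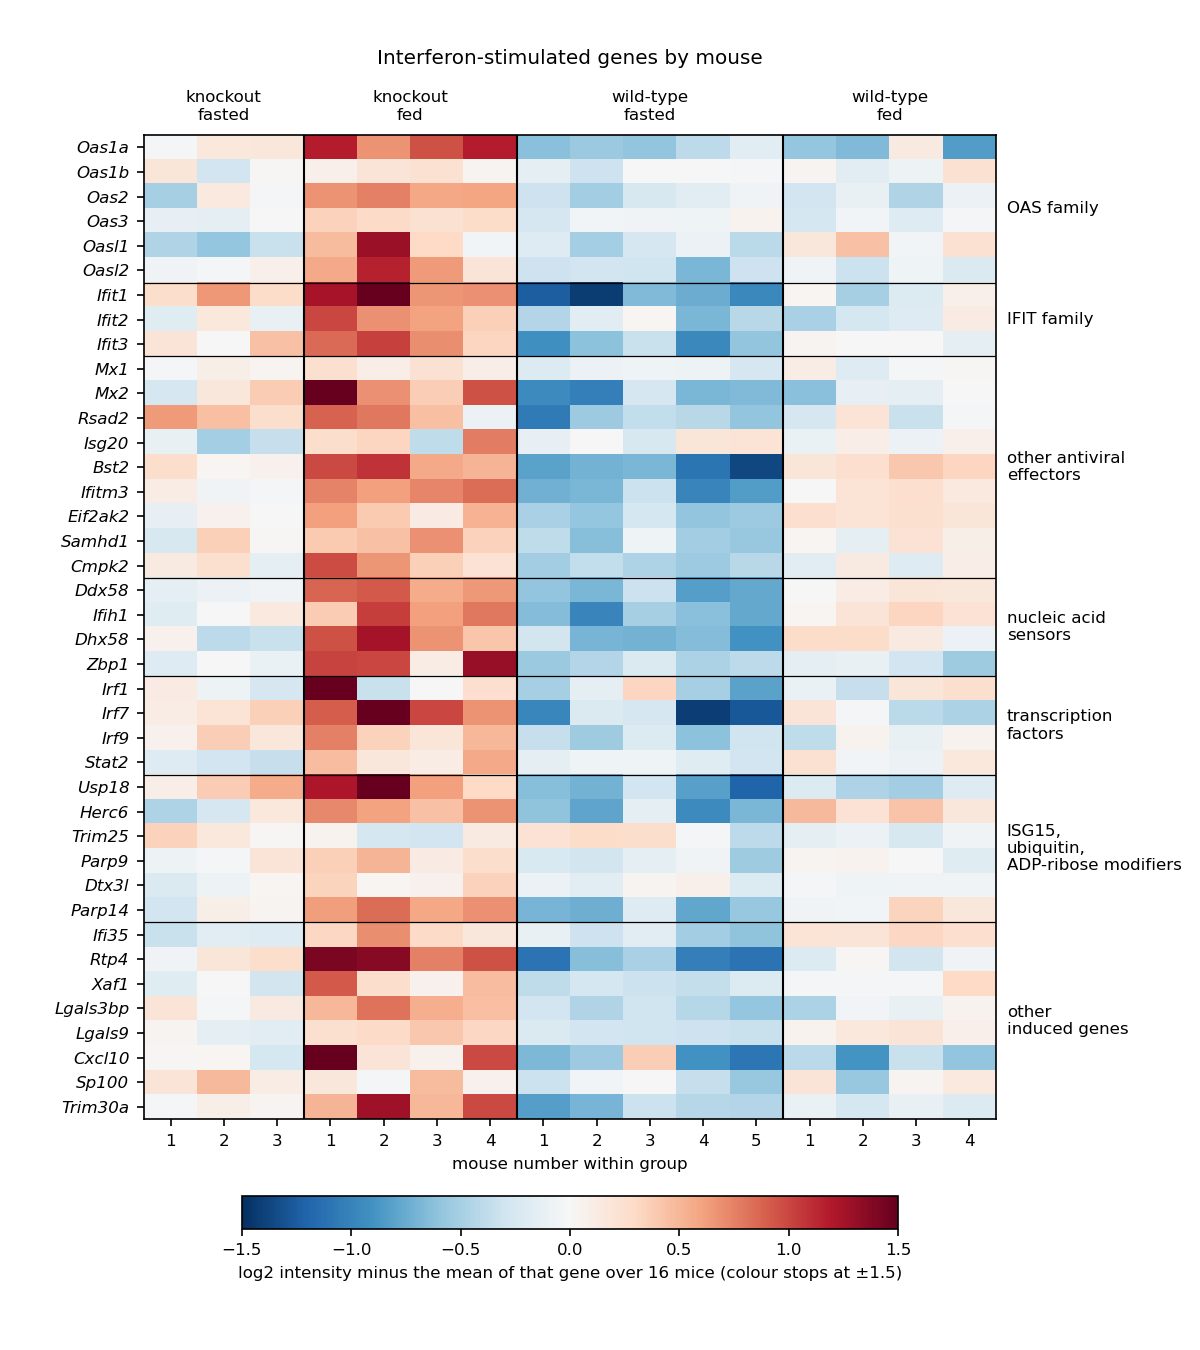
Heat map of 40 interferon-stimulated genes (rows, by role) in 16 mice (columns, by group and mouse number); colour is the log2 intensity minus the mean of that gene over all mice, and stops at 1.5 either way. Knockout fed mice are red for most genes and wild-type fasted mice blue, while knockout fasted and wild-type fed mice lie near 0.

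Between genotypes in fed mice, interferon-stimulated genes were higher in knockout liver. Of 40 genes 16 rose and none fell at an adjusted p under 0.05, where 0.677% of all genes were called in either direction and 0.451% were called higher. The median log2 difference of the 40 was 0.56, against 0.01 over all genes, and all 40 differences were above 0. Without knockout fed mice 1 and 4 the median was 0.57 and 37 differences were above 0, and Irf1 (-0.16), Trim25 (-0.15) and Isg20 (-0.03) were below it. The knockout and wild-type groups did not overlap for 27 of the 40, higher in knockout mice, against 3.53% of all genes. With the 2 mice left out 28 of the 40 did not overlap and were higher, against 8.99% of all genes, and Trim25 did not overlap and was lower. The genes that rose were Oas1a, Oas2, Oas3, Oasl2, Ifit1, Ifit2, Ifit3, Ifitm3, Ddx58, Zbp1, Irf7, Usp18, Parp14, Rtp4, Lgals3bp and Trim30a. Without knockout fed mice 1 and 4, 8 of the 16 still passed, against 0.256% of all genes, and the other 8 kept positive differences, so that the 16 lay between 0.39 and 1.59 with adjusted p up to 0.231. Those lost were Oas3, Ifit1, Ifit2, Ifitm3, Ddx58, Zbp1, Irf7 and Parp14. Oas1a, Oas2, Ddx58, Zbp1, Rtp4, Lgals3bp and Trim30a kept their calls whichever single mouse was left out. Single mice also moved the count, which was 9 without knockout fed mouse 1, wild-type fed mouse 2 or wild-type fed mouse 3.

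In fasted mice 8 of the 40 genes were higher in knockout liver and none was lower, against 0.537% of all genes in either direction and 0.351% higher. These were Ifit1, Ifit3, Rsad2, Bst2, Ifitm3, Ddx58, Ifih1 and Rtp4. The median difference of the 40 was 0.47, against -0.02 over all genes, and 35 differences were above 0. The groups did not overlap for 21 genes, higher in knockout mice, against 3.81% of all genes. Ifit1, Ifit3, Ifitm3, Ddx58 and Rtp4 were called in both feeding states, which share no mouse. The calls in fasted mice rest on 3 knockout animals. The count was 5 without knockout fasted mouse 1 or wild-type fasted mouse 5, 3 without knockout fasted mouse 2 and 1 without knockout fasted mouse 3. The call of Bst2 was kept without any single mouse.

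**Figure D2:**
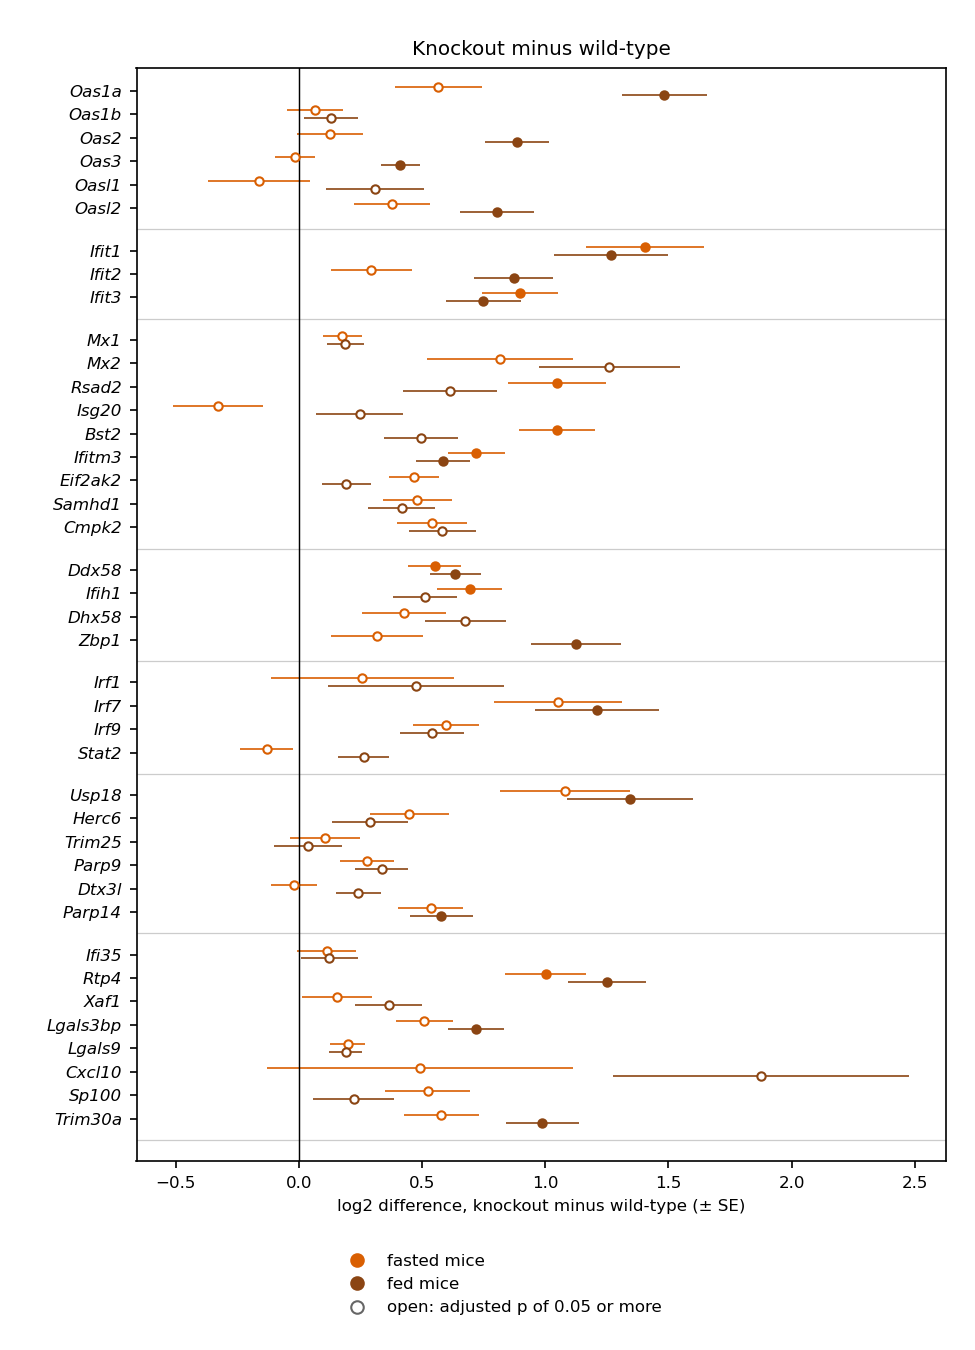
Knockout minus wild-type log2 difference (horizontal axis, point with SE) for each of the 40 genes, in fasted mice (orange) and fed mice (brown); filled points have an adjusted p under 0.05. All 40 points of fed mice, drawn with all mice included, and 35 of fasted mice lie to the right of 0.

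Fasting lowered interferon-stimulated genes in both genotypes. In wild-type mice 15 of 40 fell and none rose, where 9.22% of all genes were called in either direction and 5.92% were called lower. The median fasted minus fed difference was -0.38, against 0.02 over all genes, and the groups did not overlap for 18 genes, lower in fasted mice, against 6.99% of all genes. In knockout mice 22 of 40 fell and none rose, where 3.67% of all genes were called in either direction, 1.8% lower and 1.87% higher. Their median was -0.62, against -0.02 over all genes, and the groups did not overlap for 26 genes, lower in fasted mice, against 7.05% of all genes, and for none higher in fasted mice, against 6.17%. Bst2, Ifitm3, Eif2ak2, Ddx58, Ifih1, Dhx58, Herc6, Parp14, Ifi35, Rtp4 and Lgals9 fell in both genotypes, which share no mouse. Ifit1, Ifit3, Samhd1 and Cmpk2 passed in wild-type mice, and Oas1a, Oas2, Oas3, Oasl1, Oasl2, Ifit2, Zbp1, Stat2, Xaf1, Lgals3bp and Trim30a passed in knockout mice. Without knockout fed mice 1 and 4, 11 of the 22 still passed in knockout mice, against 1.09% of all genes, and the changes of the 22 lay between -1.25 and -0.29 with adjusted p up to 0.315. Oas1a, Oas3, Ifit2, Bst2, Eif2ak2, Zbp1, Stat2, Herc6, Parp14, Xaf1 and Lgals3bp lost their calls. The groups then did not overlap for 31 of the 40, lower in fasted mice, against 13.8% of all genes, and for 1 higher in fasted mice, against 11.7%. The count in knockout mice was 10 without knockout fasted mouse 1 and 13 without knockout fasted mouse 2. Oas2, Ifitm3, Ddx58, Dhx58, Stat2, Parp14, Rtp4, Lgals9 and Trim30a kept their calls there without any single mouse. Omission of any single mouse left 12 to 17 calls in wild-type mice, where the calls of Ifit1, Samhd1 and Cmpk2 were lost in some omissions.

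The difference between the fasting responses, knockout minus wild-type, was tested as an interaction and passed for none of the 40 genes by limma. It passed for 2 of all 19935 genes (0.01%). Before adjustment 8 of the 40 had a p under 0.05, namely Oas1a, Oas2, Oas3, Ifit2, Isg20, Zbp1 and Stat2 with the more negative change in knockout mice, and Bst2 with the more negative change in wild-type mice. The share of all genes under that cut-off before adjustment was not counted. The lowest p belonged to Oas2, at -0.76 ± 0.19 (adjusted p = 0.175). Oas1a had -0.92 ± 0.25 (adjusted p = 0.206) and Oas3 -0.43 ± 0.11 (adjusted p = 0.202). The change was more negative in knockout than in wild-type mice in 27 of the 40 genes. The median interaction of the 40 was -0.12, against -0.03 over all genes. Without knockout fed mice 1 and 4 the median was -0.07, and again none of the 40 passed. Oas2 then had -0.77 (adjusted p = 0.316), Oas1a -0.74 (adjusted p = 0.371) and Oas3 -0.40 (adjusted p = 0.338). Ifit2 had -0.56, Isg20 -0.30, Zbp1 -0.50, Stat2 -0.21 and Bst2 0.51, with adjusted p from 0.417 to 0.624. Zbp1 passed only when knockout fed mouse 3, the lowest knockout fed value of that gene, was left out (-1.06, adjusted p = 0.0248). The genes that passed in 1 genotype are therefore not shown to respond differently from the other genotype.

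**Figure D3:**
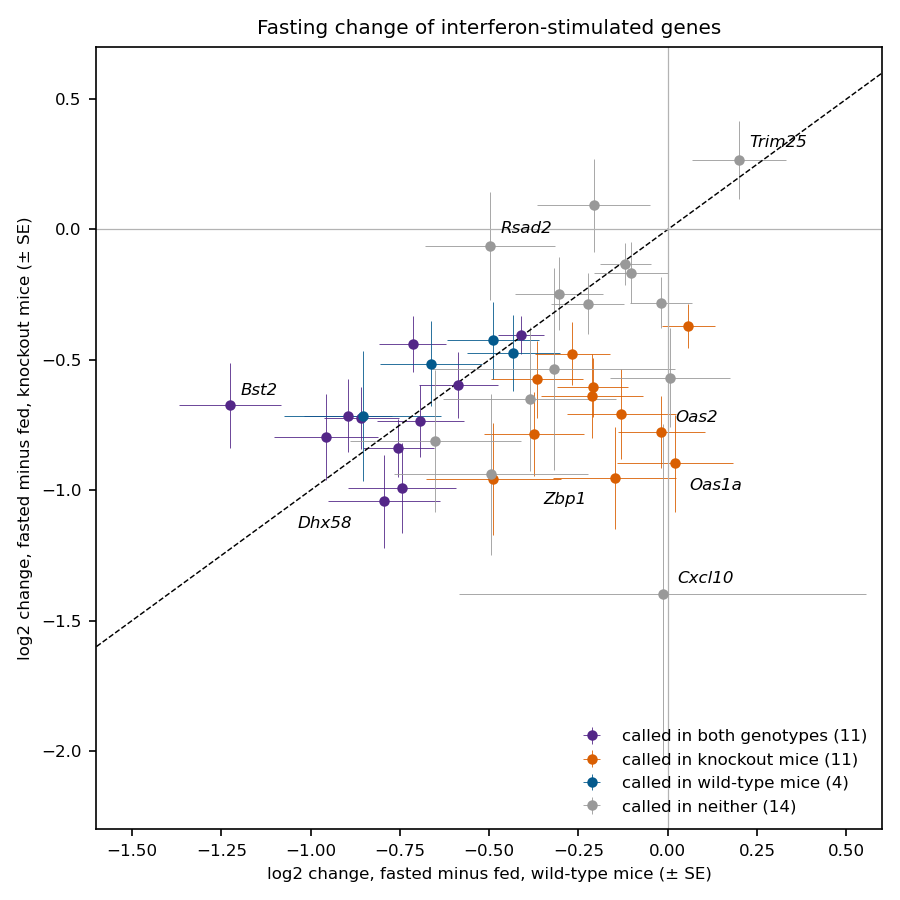
Fasted minus fed log2 difference of the 40 genes in wild-type mice (horizontal axis) and knockout mice (vertical axis), with SE; colour gives the genotype in which a gene was called, and the dashed line marks equal change. Most genes lie below 0 on both axes, and Oas1a and Oas2 lie near 0 in wild-type mice and between -0.90 and -0.78 in knockout mice.

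The OAS enzymes make short oligoadenylates that switch on a ribonuclease against viral RNA. Oas1a had log2 intensities of 4.82, 4.32, 4.59 and 4.82 in knockout fed mice, against 3.06, 2.98, 3.77 and 2.80 in wild-type fed mice. Knockout fasted mice had 3.61, 3.80 and 3.81, and wild-type fasted mice 3.01, 3.09, 3.04, 3.25 and 3.47. Every knockout fed mouse was above every other mouse, and wild-type fed mouse 3 stood above its group. The fed difference was 1.48 ± 0.17 (2.80-fold, adjusted p = 0.00203), and the fasting change was -0.90 ± 0.19 in knockout mice (adjusted p = 0.0109) and 0.02 ± 0.16 in wild-type mice (adjusted p = 0.96). The call in fed mice held without mice 1 and 4 (1.30, adjusted p = 0.0217), but not the fasting call in knockout mice (-0.72, adjusted p = 0.151). Oas2 had 3.89, 3.97, 3.79 and 3.80 in knockout fed mice, against 2.92, 3.10, 2.76 and 3.12 in wild-type fed mice. Fasted values were 2.71, 3.36 and 3.18 in knockout and 2.90, 2.69, 2.97, 3.06 and 3.16 in wild-type mice. Its groups also separated knockout fed mice from all others, with a fed difference of 0.89 ± 0.13 (adjusted p = 0.00409) and a fasting change in knockout mice of -0.78 ± 0.14 (adjusted p = 0.00486).

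Oas3 was dim. It had 3.10, 3.04, 2.98 and 3.03 in knockout fed mice, against 2.49, 2.71, 2.56 and 2.74 in wild-type fed mice, a difference of 0.41 ± 0.08 (adjusted p = 0.0204). Fasted mice lay between 2.61 and 2.75 in knockout and between 2.50 and 2.81 in wild-type livers, below each knockout fed mouse. Oasl2, an OAS-like protein of the mouse, had 4.79, 5.38, 4.86 and 4.41 in knockout fed mice, against 4.17, 3.90, 4.15 and 4.01 in wild-type fed mice. Fasted animals had 4.17, 4.20 and 4.30 in knockout and 3.92, 3.94, 3.92, 3.54 and 3.91 in wild-type livers. Knockout fed mouse 2 was the highest and wild-type fasted mouse 4 the lowest, and the fed difference was 0.80 ± 0.15 (adjusted p = 0.0182). Oasl1, which in mice restrains the making of IRF7 protein, was the brightest of the family. It had 5.73, 6.54, 5.55 and 5.21 in knockout fed mice, against 5.42, 5.69, 5.21 and 5.48 in wild-type fed mice, and these groups overlapped (0.31 ± 0.20, adjusted p = 0.543, and 0.363 without knockout fed mice 1 and 4). It fell with fasting in knockout mice, to 4.80, 4.68 and 4.92 (-0.96 ± 0.22, adjusted p = 0.0187), while wild-type fasted mice had 5.06, 4.75, 5.00, 5.16 and 4.84 (-0.49 ± 0.19, adjusted p = 0.127). Every wild-type fasted mouse lay below every wild-type fed mouse, by little, and the change did not pass. Oas1b, dim as well, passed nowhere, with fed means of 2.45 in knockout and 2.32 in wild-type mice. In all 4 of the 6 OAS genes rose in knockout fed mice, none passed between genotypes in fasted mice or with fasting in wild-type mice, and 5 fell with fasting in knockout mice. Of the 5, Oas2, Oasl1 and Oasl2 passed without knockout fed mice 1 and 4.

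IFIT proteins bind viral RNA ends and act together. Ifit1 had log2 intensities of 5.61, 6.23, 5.03 and 5.05 in knockout fed mice, against 4.40, 3.87, 4.16 and 4.44 in wild-type fed mice. Fasted mice had 4.63, 5.02 and 4.65 in knockout and 3.13, 2.95, 3.71, 3.62 and 3.40 in wild-type livers. No knockout mouse overlapped the wild-type mice of the same feeding state, and wild-type fasted mice lay below all others. The difference was 1.40 ± 0.24 in fasted mice (2.65-fold, adjusted p = 0.0125) and 1.27 ± 0.23 in fed mice (adjusted p = 0.016, and 0.0531 without knockout fed mice 1 and 4). Its fasting change was -0.72 ± 0.25 in knockout mice (adjusted p = 0.145) and -0.85 ± 0.22 in wild-type mice (adjusted p = 0.0198). The Ifit1 promoter stretch printed above carries 2 separate ISRE matches.

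Ifit3, a partner of Ifit1, had 4.48, 4.66, 4.32 and 3.95 in knockout fed mice, against 3.66, 3.63, 3.64 and 3.48 in wild-type fed mice. The fasted values were 3.83, 3.62 and 4.07 in knockout and 2.70, 3.01, 3.30, 2.66 and 3.03 in wild-type livers. Wild-type fasted mice were again the lowest. The difference was 0.90 ± 0.16 in fasted mice (adjusted p = 0.0144) and 0.75 ± 0.15 in fed mice (adjusted p = 0.0291). Ifit2, dim on this array, had 3.79, 3.47, 3.40 and 3.15 in knockout fed mice, against 2.30, 2.52, 2.59 and 2.91 in wild-type fed mice (0.87 ± 0.16, adjusted p = 0.0167). After 24 h without food it had 2.61, 2.95 and 2.68 in knockout and 2.35, 2.61, 2.82, 2.10 and 2.37 in wild-type livers. These fasted groups overlapped (0.29 ± 0.17, adjusted p = 0.589). The 3 genes lie close together on chromosome 19, and Oas2 and Oas3, like Oasl2 and Oasl1, are neighbours on chromosome 5. OAS, IFIT and TRIM proteins come from families of similar genes, and whether probes of one gene also bound RNA of a relative was not tested.

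**Figure D4:**
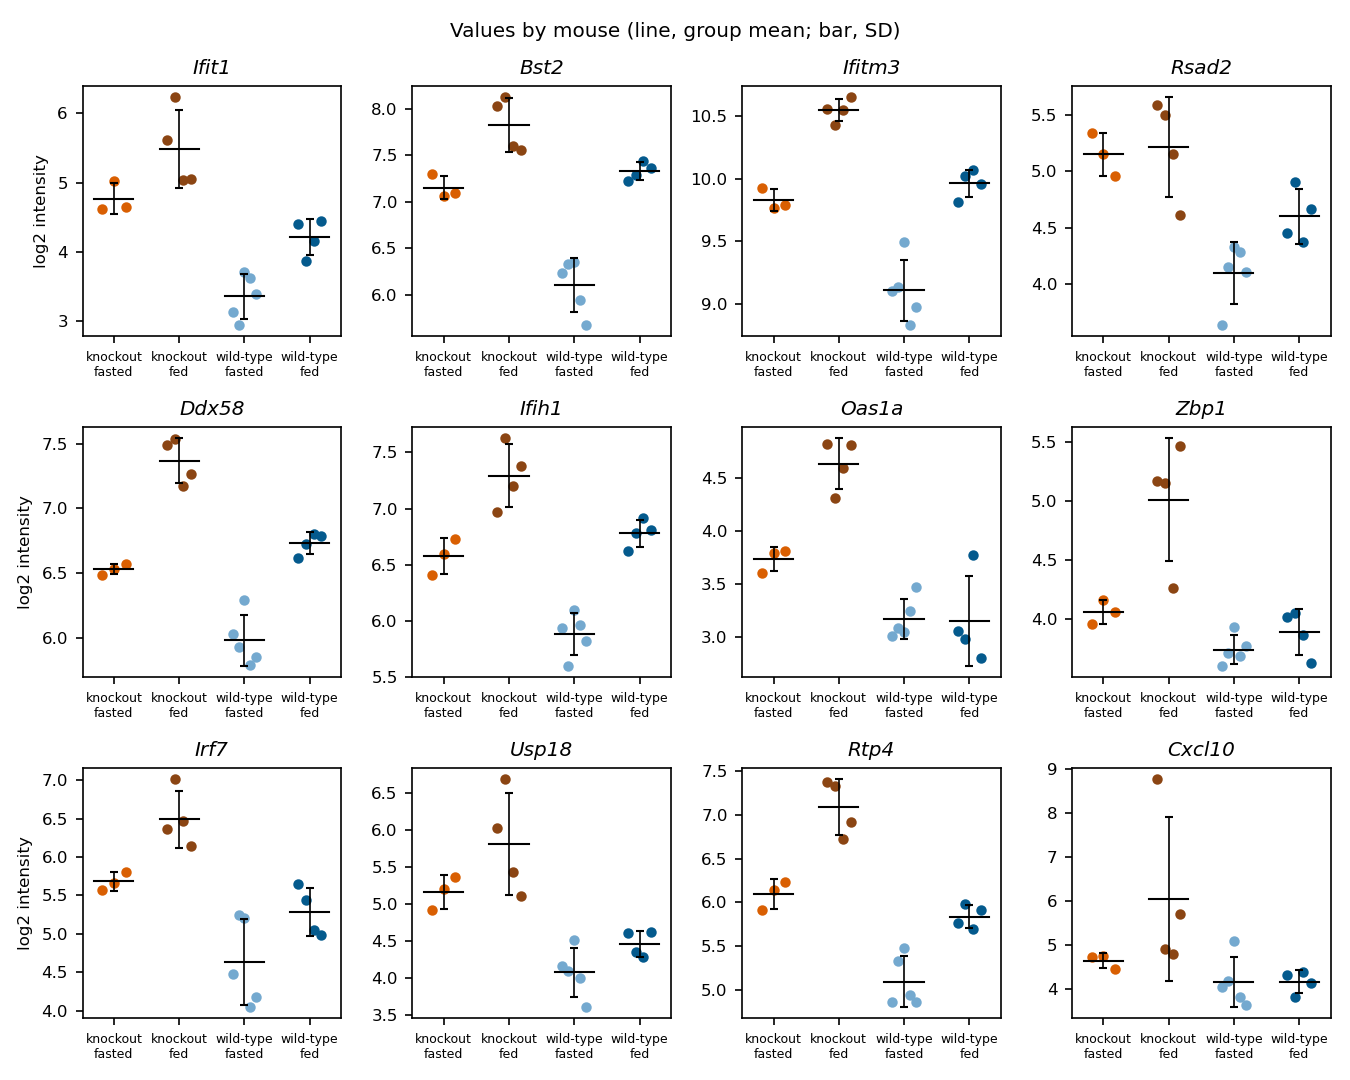
Log2 intensity of 12 interferon-stimulated genes in each mouse, by group (points; line, mean; bar, SD). Knockout fed mice are above wild-type fed mice in every panel except for overlaps in Rsad2, and Cxcl10 is high in 1 knockout fed mouse, at 8.76.

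Of the 9 other antiviral effectors, Ifitm3 was the brightest. Its protein stops viruses from fusing with endosomes. Log2 intensities were 10.56, 10.44, 10.55 and 10.65 in knockout fed mice, against 9.82, 10.02, 10.07 and 9.96 in wild-type fed mice. In fasted mice they were 9.93, 9.76 and 9.79 in knockout and 9.10, 9.14, 9.49, 8.83 and 8.98 in wild-type livers. Both genotype comparisons were free of overlap, with a difference of 0.72 ± 0.11 in fasted mice (adjusted p = 0.00911) and 0.58 ± 0.11 in fed mice (adjusted p = 0.0196, and 0.209 without knockout fed mice 1 and 4). Fasting lowered it in knockout (-0.72 ± 0.12, adjusted p = 0.00293) and wild-type mice (-0.86 ± 0.11, adjusted p = 7.42e-05), and the interaction was 0.14 ± 0.16 (adjusted p = 0.742).

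Bst2 encodes tetherin, which holds budding virus at the cell surface. It had 7.30, 7.06 and 7.10 in knockout fasted mice, against 6.23, 6.32, 6.35, 5.94 and 5.67 in wild-type fasted mice. Fed mice had 8.03, 8.12, 7.60 and 7.55 in knockout and 7.22, 7.29, 7.44 and 7.36 in wild-type livers. Wild-type fasted mice lay below all others, and the genotypes did not overlap in either feeding state. The fasted difference was 1.05 ± 0.15 (2.07-fold, adjusted p = 0.00628) and the fed difference 0.50 ± 0.15 (adjusted p = 0.148, and 0.359 without knockout fed mice 1 and 4). Bst2 had the largest fasting fall of the 40 genes in wild-type mice, -1.23 ± 0.14 (adjusted p = 4.65e-05), and fell by 0.67 ± 0.16 in knockout mice (adjusted p = 0.0265, and 0.0909 without knockout fed mice 1 and 4).

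Rsad2 encodes viperin, which makes a nucleotide that ends viral RNA chains. It had 5.33, 5.15 and 4.96 in knockout fasted mice, against 3.64, 4.15, 4.33, 4.28 and 4.11 in wild-type fasted mice. In fed livers it had 5.59, 5.49, 5.15 and 4.62 in knockouts, against 4.45, 4.91, 4.37 and 4.67 in wild types. The fasted groups were apart (1.05 ± 0.20, adjusted p = 0.0245), and the fed groups overlapped through knockout fed mouse 4 (0.61 ± 0.19, adjusted p = 0.164, and 0.72 with adjusted p = 0.196 without knockout fed mice 1 and 4). The call in fasted mice was lost without any 1 of the 3 knockout fasted mice or without wild-type fasted mouse 5, at adjusted p up to 0.122. Cmpk2, a mitochondrial nucleotide kinase whose gene lies beside Rsad2 on chromosome 12, had differences of 0.54 ± 0.14 in fasted mice (adjusted p = 0.115) and 0.58 ± 0.14 in fed mice (adjusted p = 0.0609), and passed neither.

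Eif2ak2 encodes PKR, a kinase that halts translation on double-stranded RNA. It had 4.86, 5.05 and 4.98 in knockout fasted and 5.60, 5.38, 5.11 and 5.51 in knockout fed mice. Wild-type fasted mice had 4.50, 4.41, 4.73, 4.39 and 4.44, and wild-type fed mice 5.24, 5.20, 5.22 and 5.17. It fell with fasting in knockout (-0.44 ± 0.11, adjusted p = 0.0286, and 0.315 without knockout fed mice 1 and 4) and in wild-type mice (-0.71 ± 0.09, adjusted p = 0.000135). The fasted genotype difference of 0.47 ± 0.10 just missed the threshold (adjusted p = 0.0509). Eif2ak2 was the only one of the genes on chromosome 17. That chromosome also holds Ppard, 610 places away in the order of protein-coding genes of the assembly. Samhd1, which breaks down nucleotides, fell with fasting in wild-type mice (-0.49 ± 0.13, adjusted p = 0.0234). Of the dynamin-like GTPases, Mx1 was dim and passed nowhere. Mx2 averaged 5.56 ± 0.78 in knockout fed and 4.30 ± 0.27 in wild-type fed mice (SD, n = 4 each), and its difference of 1.26 ± 0.29 did not pass (adjusted p = 0.0538). Knockout fed mouse 1 was its highest, at 6.67, and without knockout fed mice 1 and 4 the difference was 0.75 (adjusted p = 0.279). The exonuclease gene Isg20 passed nowhere and had a fasted difference below 0 (-0.33 ± 0.18, adjusted p = 0.58).

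Among the nucleic acid sensors, Ddx58 encodes RIG-I, a cytoplasmic sensor of viral RNA. It had log2 intensities of 7.49, 7.54, 7.18 and 7.26 in knockout fed mice, against 6.62, 6.73, 6.80 and 6.78 in wild-type fed mice. In fasted mice they were 6.49, 6.53 and 6.57 in knockout and 6.03, 5.93, 6.29, 5.79 and 5.85 in wild-type livers. No groups overlapped, with knockout fed mice on top, then wild-type fed mice, then knockout fasted mice and wild-type fasted mice at the bottom. The difference was 0.55 ± 0.11 in fasted mice (adjusted p = 0.0281) and 0.63 ± 0.10 in fed mice (adjusted p = 0.00737, and 0.0791 without knockout fed mice 1 and 4). The fasting change was -0.84 ± 0.11 in knockout mice (adjusted p = 0.000535) and -0.75 ± 0.10 in wild-type mice (adjusted p = 0.000136).

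Ifih1 encodes MDA5, which senses long double-stranded RNA. It had 6.41, 6.59 and 6.73 in knockout fasted mice, against 5.94, 5.60, 6.10, 5.97 and 5.83 in wild-type fasted mice. In fed mice it had 6.97, 7.62, 7.21 and 7.38 in knockout and 6.62, 6.78, 6.91 and 6.81 in wild-type livers. The genotypes did not overlap in either feeding state, and the fasted difference passed (0.69 ± 0.13, adjusted p = 0.0269) where the fed one did not (0.51 ± 0.13, adjusted p = 0.0827, and 0.119 without knockout fed mice 1 and 4). Dhx58, or LGP2, which tunes both of these sensors, had 4.29, 3.84 and 3.89 in knockout fasted and 5.18, 5.47, 4.90 and 4.64 in knockout fed mice. In wild-type livers it had 3.95, 3.53, 3.51, 3.58 and 3.31 after fasting and 4.50, 4.50, 4.35 and 4.13 when fed. Fed mice of each genotype lay above fasted mice of the same genotype, with changes of -1.04 ± 0.18 in knockout mice (adjusted p = 0.00388) and -0.80 ± 0.16 in wild-type mice (adjusted p = 0.00351). Zbp1, a sensor of left-handed nucleic acid that can start cell death, had 5.16, 5.15, 4.26 and 5.47 in knockout fed mice, against 4.01, 4.05, 3.86 and 3.62 in wild-type fed mice. In fasted mice it had 3.95, 4.16 and 4.05 in knockout and 3.60, 3.71, 3.93, 3.68 and 3.77 in wild-type livers. Knockout fed mouse 3 lay far below the rest of its group and just above the other groups. The fed difference was 1.12 ± 0.18 (adjusted p = 0.00655, and 0.115 without knockout fed mice 1 and 4), and the fasting change in knockout mice -0.95 ± 0.20 (adjusted p = 0.0108, and 0.144 without these mice).

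Irf7, the transcription factor that amplifies interferon production, was the called one among the 4 transcription factors between genotypes. It had 6.36, 7.01, 6.46 and 6.14 in knockout fed mice, against 5.65, 5.45, 5.06 and 4.98 in wild-type fed mice. Fasted animals had 5.57, 5.67 and 5.81 in knockout and 4.48, 5.25, 5.20, 4.05 and 4.18 in wild-type livers. No knockout mouse overlapped the wild-type mice of the same feeding state, and the difference was 1.05 ± 0.26 in fasted mice (adjusted p = 0.0892) and 1.21 ± 0.25 in fed mice (adjusted p = 0.0361). Omission of 1 mouse ended the fed call in 7 of 16 cases, at adjusted p up to 0.12, and omission of knockout fed mice 1 and 4 together ended it too (adjusted p = 0.0799). Stat2, the brightest of the 4, had 7.06, 6.96 and 6.91 in knockout fasted and 7.71, 7.43, 7.36 and 7.82 in knockout fed mice. Wild-type fasted mice had 7.12, 7.19, 7.19, 7.07 and 6.97, and wild-type fed mice 7.48, 7.21, 7.16 and 7.41. It fell with fasting in knockout mice (-0.61 ± 0.11, adjusted p = 0.00579, and 0.0899 without knockout fed mice 1 and 4) and had -0.21 ± 0.10 in wild-type mice (adjusted p = 0.217). Irf9 had 0.60 ± 0.13 in fasted mice (adjusted p = 0.0562) and 0.54 ± 0.13 in fed mice (adjusted p = 0.0663). Irf1, which also answers interferon gamma, was high in knockout fed mouse 1 alone, at 7.71 against 4.95 to 6.07 in all other mice, and its fed difference was 0.48 ± 0.36 (adjusted p = 0.609). That difference was -0.16 without mouse 1 and mouse 4 of the group (adjusted p = 0.869).

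Usp18, which strips ISG15 from proteins and damps the interferon receptor, led the modifiers. It had 6.02, 6.68, 5.43 and 5.11 in knockout fed mice, against 4.61, 4.35, 4.28 and 4.62 in wild-type fed mice. The fasted values were 4.91, 5.20 and 5.37 in knockout and 4.17, 4.10, 4.52, 4.00 and 3.61 in wild-type livers. The genotypes were apart in both feeding states, by 1.08 ± 0.26 in fasted mice (adjusted p = 0.0839) and 1.34 ± 0.26 in fed mice (adjusted p = 0.0196, and 0.0279 without knockout fed mice 1 and 4). Parp14, an ADP-ribosyltransferase, had 6.57, 6.78, 6.52 and 6.63 in knockout fed mice, against 5.89, 5.90, 6.28 and 6.11 in wild-type fed mice. After 24 h without food it had 5.65, 6.03 and 5.99 in knockout and 5.25, 5.22, 5.76, 5.17 and 5.38 in wild-type livers. Its fed difference of 0.58 ± 0.13 passed narrowly (adjusted p = 0.0496) and was lost in 13 of 16 omissions of a single mouse, while its fasting change was -0.73 ± 0.14 in knockout mice (adjusted p = 0.00633, and 0.0525 without knockout fed mice 1 and 4) and -0.69 ± 0.12 in wild-type mice (adjusted p = 0.00152).

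Herc6, which attaches ISG15 to proteins in mice, had 4.89, 5.10 and 5.52 in knockout fasted and 6.08, 5.95, 5.79 and 6.03 in knockout fed mice. In wild-type livers it had 4.76, 4.56, 5.21, 4.40 and 4.67 after fasting and 5.83, 5.57, 5.78 and 5.52 when fed. Feeding state separated it in both genotypes, with changes of -0.80 ± 0.17 in knockout mice (adjusted p = 0.0121, and 0.131 without knockout fed mice 1 and 4) and -0.96 ± 0.15 in wild-type mice (adjusted p = 0.000498). Trim25, a ubiquitin ligase that acts on RIG-I, was the brightest of the modifiers and passed nowhere. It had 7.57, 7.39 and 7.25 in knockout fasted and 7.27, 6.96, 6.93 and 7.36 in knockout fed mice. Wild-type fasted mice had 7.44, 7.50, 7.49, 7.21 and 6.83, and wild-type fed mice 7.09, 7.14, 6.98 and 7.17. All groups overlapped in pairs of the same feeding state, with fed difference 0.04 ± 0.14 (adjusted p = 0.935, and -0.15 with adjusted p = 0.797 without knockout fed mice 1 and 4). Parp9 and Dtx3l, which work as one complex and are neighbours of Parp14 on chromosome 16, passed nowhere, with fed differences of 0.34 ± 0.11 and 0.24 ± 0.09. With knockout fed mice 1 and 4 left out these were 0.34 (adjusted p = 0.454) for Parp9 and 0.09 (adjusted p = 0.795) for Dtx3l.

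Of the other induced genes, Rtp4, a receptor-transporter protein, was called in each of the genotype and feeding comparisons. It had 7.38, 7.33, 6.73 and 6.92 in knockout fed mice, against 5.76, 5.98, 5.70 and 5.91 in wild-type fed mice. In fasted mice it had 5.91, 6.15 and 6.23 in knockout and 4.86, 5.33, 5.48, 4.94 and 4.86 in wild-type livers. Knockout fed mice were above and wild-type fasted mice below all the rest. The difference was 1.00 ± 0.16 in fasted mice (adjusted p = 0.0109) and 1.25 ± 0.16 in fed mice (2.38-fold, adjusted p = 0.00203, and 0.0217 without knockout fed mice 1 and 4). Fasting changed it by -0.99 ± 0.17 in knockout mice (adjusted p = 0.00411) and -0.74 ± 0.15 in wild-type mice (adjusted p = 0.00424). Ifitm3 and Ddx58 also passed in each of them.

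Trim30a, which damps inflammatory signalling in mice, had 5.64, 6.40, 5.62 and 6.11 in knockout fed mice, against 5.03, 4.86, 5.02 and 4.91 in wild-type fed mice. Fasted animals had 5.10, 5.21 and 5.17 in knockout and 4.30, 4.42, 4.80, 4.70 and 4.68 in wild-type livers. Knockout fed mice were above all others, with a difference of 0.99 ± 0.15 (adjusted p = 0.00486). Lgals3bp, a secreted galectin-binding glycoprotein, had 8.07, 8.39, 8.13 and 8.03 in knockout fed mice, against 7.11, 7.54, 7.46 and 7.64 in wild-type fed mice. The fasted values were 7.77, 7.55 and 7.72 in knockout and 7.30, 7.12, 7.28, 7.15 and 7.00 in wild-type livers. It too had every knockout fed mouse on top (0.72 ± 0.11, adjusted p = 0.00544). Both calls held without knockout fed mice 1 and 4, at 1.06 (adjusted p = 0.0219) for Trim30a and 0.82 (adjusted p = 0.0238) for Lgals3bp.

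Lgals9, a galectin, was the brightest of the 40 genes, in the 98.9th percentile of the array. It had 10.00, 9.81 and 9.78 in knockout fasted and 10.20, 10.25, 10.36 and 10.27 in knockout fed mice. In wild-type livers it had 9.74, 9.67, 9.66, 9.65 and 9.62 after fasting and 10.02, 10.12, 10.15 and 10.04 when fed. Fed mice lay above fasted mice in each genotype, with fasting changes of -0.40 ± 0.07 in knockout mice (adjusted p = 0.00513) and -0.41 ± 0.06 in wild-type mice (adjusted p = 0.000592). Ifi35, a partner of other interferon-induced proteins, had 5.32, 5.48 and 5.46 in knockout fasted and 5.96, 6.35, 5.94 and 5.83 in knockout fed mice. Wild-type fasted mice had 5.54, 5.34, 5.48, 5.13 and 5.05, and wild-type fed mice 5.86, 5.85, 5.96 and 5.91. It followed feeding, by -0.60 ± 0.13 in knockout mice (adjusted p = 0.0128) and -0.59 ± 0.11 in wild-type mice (adjusted p = 0.00262), and its genotype difference was 0.11 ± 0.12 in fasted and 0.12 ± 0.12 in fed mice. Xaf1, tied to cell death, fell with fasting in knockout mice (-0.57 ± 0.15, adjusted p = 0.038, and 0.275 without knockout fed mice 1 and 4). Sp100, a nuclear body protein, passed nowhere. The chemokine Cxcl10, which draws T cells, had the widest spread, with 8.76, 4.91, 4.78 and 5.70 in knockout fed mice, against 4.31, 3.82, 4.38 and 4.13 in wild-type fed mice. Its fed difference of 1.88 ± 0.60 was the largest of the 40 and did not pass (adjusted p = 0.174), and the value with mice 1 and 4 left out was 0.68 (adjusted p = 0.463).

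The effectors were set beside the sensors and transcription factors. In fed mice 8 of 18 effectors and 3 of 8 sensors and factors rose in knockout liver, with median differences of 0.58 and 0.59. Over all genes 0.451% were called higher there. Without knockout fed mice 1 and 4, the effectors Oas1a, Oas2, Oasl2 and Ifit3 kept their fed calls. None of the 3 sensors and factors did (Ddx58, Zbp1 and Irf7, adjusted p from 0.0791 to 0.115). In fasted mice 5 of 18 and 2 of 8 rose, with medians of 0.47 and 0.49, where 0.351% of all genes were called higher. Fasting lowered 9 of 18 effectors and 5 of 8 sensors and factors in knockout mice (medians -0.60 and -0.76), and 7 of 18 and 3 of 8 in wild-type mice (medians -0.46 and -0.48). Over all genes 1.8% were called lower in knockout mice and 5.92% in wild-type mice. Without knockout fed mice 1 and 4, the effectors Oas2, Oasl1, Oasl2 and Ifitm3 kept their calls in knockout mice. So did the sensors Ddx58, Ifih1 and Dhx58. The difference between these role groups was not tested. Members with an ISRE match in the window also stood beside those without. In fasted mice 7 of 14 measured genes with a match, none of 16 without one and 1 of the 10 with no window were called higher in knockout liver, with medians of 0.57, 0.34 and 0.37. This split depended on the fit. Cmpk2 (adjusted p = 0.0351) and Irf9 (adjusted p = 0.0329), which lack a match, passed in fasted mice when knockout fed mice 1 and 4 were left out. Eif2ak2, which has a match, then passed too (adjusted p = 0.0291). The 8 calls in fasted mice became 1 without knockout fasted mouse 3. In fed mice the counts were 7, 4 and 5, with medians of 0.60, 0.39 and 0.78. Without knockout fed mice 1 and 4, Oas1a, Ifit3 and Trim30a kept their fed calls among genes with a match. Oasl2 and Lgals3bp kept theirs among genes without one, and Oas2, Usp18 and Rtp4 among those with no window. These counts describe a window of the promoter and were not tested.

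Genes that act before the response were set beside it. None of 16 measured interferon genes was called in any comparison, and 10 of them were dim. Ifnb1, the gene for interferon beta, averaged 2.09 in knockout fasted and 1.92 in knockout fed mice, against 1.97 in wild-type fasted and 2.08 in wild-type fed mice and was dim. Of 15 receptors, kinases and inhibitors none passed between genotypes, and 11 differences were above 0 in fed mice with a median of 0.12. The fed genotypes did not overlap for 2, higher in knockout mice, against 3.53% of all genes. Without knockout fed mice 1 and 4, 3 did not overlap and were higher, against 8.99% of all genes. With these mice left out 1 did not overlap and was lower, against 8.52%. The largest fed difference was that of Socs3, an inhibitor of cytokine signalling, at 1.46 ± 0.45 (adjusted p = 0.153). With knockout fed mice 1 and 4 left out it was 0.39 ± 0.09 (adjusted p = 0.128). The receptor chain gene Ifnar1 differed by -0.06 ± 0.12 in fed mice (adjusted p = 0.871), the kinase genes Jak1 by 0.14 ± 0.09 (adjusted p = 0.514) and Tyk2 by 0.03 ± 0.08 (adjusted p = 0.921). In wild-type mice fasting raised the receptor chain gene Ifnar2 by 0.34 ± 0.10 (adjusted p = 0.0381) and the inhibitor gene Socs1 by 0.24 ± 0.07 (adjusted p = 0.0415) and lowered the kinase gene Jak2 by 0.38 ± 0.10 (adjusted p = 0.0213).

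Of 16 genes that lead to interferon production none passed between genotypes. In fed mice 12 of the 16 differences were above 0, with a median of 0.14, and the genotypes did not overlap for 5, higher in knockout mice, against the 3.53% of all genes given above. The highest were Ikbke, a kinase that activates IRF3 and IRF7, at 1.09 ± 0.25 (adjusted p = 0.0608), Myd88, an adaptor of Toll-like receptors, at 0.69 ± 0.17 (adjusted p = 0.0827), and the DNA-sensing adaptor gene Sting1, at 0.54 ± 0.15 (adjusted p = 0.11). Without knockout fed mice 1 and 4 these were 0.47 ± 0.17 for Ikbke (adjusted p = 0.398), 0.27 ± 0.12 for Myd88 (adjusted p = 0.469) and 0.26 ± 0.15 for Sting1 (adjusted p = 0.589). In that fit 10 of the 16 were above 0 and 7 did not overlap and were higher, against 8.99% of all genes. In fasted mice 8 of the 16 were above 0, with Ikbke again the highest, at 0.79 ± 0.26 (adjusted p = 0.262). Irf3, the factor that first turns on interferon beta, differed by -0.02 ± 0.08 in fed mice (adjusted p = 0.946). Irf5 fell with fasting in knockout (-0.47 ± 0.12, adjusted p = 0.0298) and wild-type mice (-0.59 ± 0.10, adjusted p = 0.00136), and Sting1 fell in knockout mice (-0.62 ± 0.16, adjusted p = 0.0417). Neither passed in knockout mice without knockout fed mice 1 and 4, at -0.38 ± 0.13 for Irf5 (adjusted p = 0.241) and -0.34 ± 0.15 for Sting1 (adjusted p = 0.414). Among 9 measured interferon-inducible GTPases, which attack the membranes around intracellular microbes, Gbp3 and Irgm1 rose in knockout mice in both feeding states. Gbp3 differed by 1.09 ± 0.21 in fasted (adjusted p = 0.0281) and 1.44 ± 0.20 in fed mice (adjusted p = 0.00361). Irgm1 differed by 0.61 ± 0.13 in fasted (adjusted p = 0.0476) and 0.80 ± 0.13 in fed mice (adjusted p = 0.00606). The fed differences in the fit that left out knockout fed mice 1 and 4 were 1.64 ± 0.25 for Gbp3 (adjusted p = 0.0177) and 0.83 ± 0.16 for Irgm1 (adjusted p = 0.0452). All 9 had positive differences in both feeding states, with medians of 0.44 in fasted and 0.63 in fed mice, and of 0.79 in fed mice without these 2.

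Markers of other cells were read beside these values. Of 13 Kupffer cell and macrophage genes, Clec4f (0.88 ± 0.11, adjusted p = 0.00203), Cd5l (0.85 ± 0.15, adjusted p = 0.0101) and C1qb (0.75 ± 0.14, adjusted p = 0.0196) rose in knockout fed mice. All 13 differences were positive there, with a median of 0.58, where 0.451% of all genes were called higher. The fed genotypes did not overlap for 10 of the 13, higher in knockout mice, against 3.53% of all genes. With knockout fed mice 1 and 4 left out this held for 11, against 8.99% of all genes. Without knockout fed mice 1 and 4, Clec4f still passed (0.89 ± 0.15, adjusted p = 0.0219), and Cd5l (0.92 ± 0.18, adjusted p = 0.0605) and C1qb (0.70 ± 0.18, adjusted p = 0.196) did not, with 12 differences positive and a median of 0.57. In fasted mice Clec4f rose in knockout liver (0.54 ± 0.12, adjusted p = 0.0474) and the median was 0.32. The fasted genotypes did not overlap for 1 of the 13, higher in knockout mice, against 3.81% of all genes. The summed intensity of the 13 genes was 1100 to 1254 in knockout fasted and 1434 to 1569 in knockout fed mice, against 677 to 1121 in wild-type fasted and 921 to 1090 in wild-type fed mice. Between genotypes in fed mice these genes moved in the same direction as the interferon-stimulated genes. In fasted mice 12 of the 13 differences were positive, but only Clec4f passed and the summed intensities of the genotypes overlapped. The part of these genes in the result was not tested. With fasting in wild-type mice none of the 13 passed, with a median of -0.08, and in knockout mice Clec4f fell (-0.46 ± 0.12, adjusted p = 0.044, and 0.19 without knockout fed mice 1 and 4), with a median of -0.43. Of the 12 acute phase genes none passed between genotypes, though all 12 differences were positive in fed mice (median 0.58, and 0.10 without knockout fed mice 1 and 4), and their part in the result was not tested. Of 8 stellate cell and fibroblast genes none passed between genotypes, with 7 differences above 0 in fasted mice (median 0.36) and 2 in fed mice (median -0.09). With fasting in wild-type mice 7 of the 8 were below 0 (median -0.30) and the collagen gene Col3a1 fell (-0.80 ± 0.21, adjusted p = 0.0208), while none passed in knockout mice (median 0.14). Their summed intensity was 1063 to 1143 in knockout fasted and 803 to 1025 in knockout fed mice, against 796 to 1065 in wild-type fasted and 899 to 1251 in wild-type fed mice. Of 8 sinusoidal endothelial cell genes none passed between genotypes, with 5 differences above 0 in fasted mice (median 0.14) and 3 in fed mice (median -0.03). The fasted genotypes did not overlap for 3 of these 8, higher in knockout mice, against the 3.81% of all genes given above. The lectin gene Clec4g fell with fasting in wild-type mice (-0.85 ± 0.20, adjusted p = 0.0125, list median -0.06), and Bmp2, which encodes a signal that regulates iron uptake, rose with fasting in knockout mice (0.64 ± 0.15, adjusted p = 0.0252, and 0.0469 without knockout fed mice 1 and 4, list median 0.10). Their summed intensity was 1011 to 1141 in knockout fasted and 909 to 1157 in knockout fed mice, against 769 to 969 in wild-type fasted and 853 to 1190 in wild-type fed mice. The part of these 2 lists in the result was not tested. None of 6 plasmacytoid dendritic cell, 9 neutrophil, 10 T and NK cell or 5 B cell genes passed between genotypes, and all 9 neutrophil genes were dim. None of 8 hepatocyte genes passed between genotypes, and their summed intensity was 27229 to 27982 in knockout fasted and 24789 to 28346 in knockout fed mice, against 27591 to 28288 in wild-type fasted and 25686 to 26579 in wild-type fed mice.

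**Figure D5:**
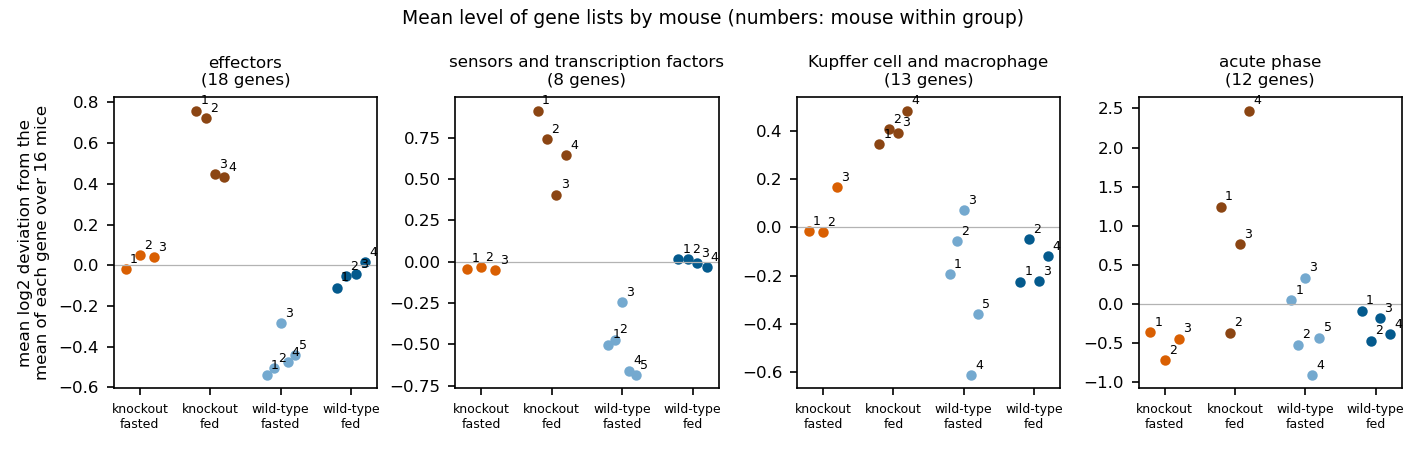
Mean log2 deviation of each mouse from the average of all mice over 18 effectors, 8 sensors and transcription factors, 13 Kupffer cell and macrophage genes and 12 acute phase genes; numbers give the mouse within its group, and the vertical axes differ. Knockout fed mice are above all others in the first 3 panels, and knockout fed mice 1 and 4 are the highest in the acute phase panel, at 1.24 and 2.47.

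Within groups the mice differed as well. Among knockout fed mice the mean deviation over the 40 genes was 0.81, 0.69, 0.40 and 0.49 in mice 1 to 4. Mouse 2 was the highest of its group in 16 genes and mouse 1 in 14, while mouse 3 was the lowest in 18 and mouse 4 in 15. In the acute phase genes mouse 4 was the highest of the group, at 2.47, mouse 1 came next, then mouse 3, and mouse 2 was the lowest, at -0.36. Mouse 3 still lay above every mouse of the other groups. The part of the acute phase in the order of these mice was not tested. Among wild-type fasted mice, mouse 3 was the highest in 24 of the 40 genes and had the highest mean deviation, -0.23, against -0.55 to -0.46 in the other 4. That mouse also had the highest Kupffer score of its group, 0.07 against -0.61 to -0.06, and the highest acute phase score, 0.34 against -0.91 to 0.05. Their part in its values was not tested.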

How the data were processed

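Liver RNA of 16 mice was measured on 1 Affymetrix array each. Per the submitters' processing notes the arrays were processed with RMA, and the authors deposited a linear intensity per probe set and mouse; log2 was taken here. The sources used here state no further settings and no genome build. Of 35519 probe sets, 21780 carried 1 gene symbol, 1605 several and 12134 none. The probe set with the highest mean stood for each of 19935 genes. Limma 3.58.1 in R 4.3.3 fitted the 4 group means (lmFit, eBayes), with Benjamini-Hochberg adjustment over all 19935 genes and calls at an adjusted p under 0.05. A gene was dim with a mean under the 40th percentile. Differences are log2 with SE. The steps were tested on simulated data. The members and lists were chosen with earlier results of these data known. Values in every mouse are given for members called between genotypes or in both fasting comparisons and for the brightest of each role, and Cxcl10 was added after its values were seen. Other normalizations, filters, probe set rules, variance settings, a replicate block, single omissions and the omission of knockout fed mice 1 and 4 were tried; that omission was extended to pathway and marker genes, overlaps and group order after the data had been seen. The number of arrays limits the precision.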

Additional observations from a re-analysis of the deposited data

Results flagged for a closer look

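Of 120 sets of 4 or 5 mice examined over the 40 genes, 3 held 1 mouse far from the rest of its group by Dixon's criterion, which chance alone flags in about 1 of 20 sets. Oasl2 had 3.54 in wild-type fasted mouse 4, below 3.91 to 3.94 in the other 4 mice. Dtx3l had 6.51 in wild-type fed mouse 1, above 6.46 to 6.47 in the other 3. Xaf1 had 3.75 in wild-type fed mouse 4, above 3.43 to 3.44 in the other 3.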

How the results depend on the processing

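No call among the 40 genes changed direction under any alternative. Quantile normalization, median centring, omission of dim genes, inclusion of every probe set, medians over probe sets and an intensity trend with robust variance gave 15 to 18 calls between genotypes in fed mice, 7 to 10 in fasted mice, and for the fasting change 15 calls among wild types and 20 to 22 among knockouts. With dim genes left out these counts are of 36 genes, and 14 of the 16 fed calls were kept, as Oas3 and Ifit2 are dim. The shares of all genes called in either direction were then higher. They were 1.37% and 1.04% between genotypes in fed and fasted mice, and 16.2% and 6.86% with fasting in wild-type and knockout mice. In fed mice the count of 16 became 8 when only the 2 groups compared were fitted and 8 without knockout fed mice 1 and 4. In fasted mice the count of 8 became 13 with array weights and 14 at an adjusted p under 0.1. For fasting in knockout mice the count of 22 became 12 with the 2 groups fitted alone and 11 without knockout fed mice 1 and 4. Leaving out 1 mouse gave 9 to 19 calls between genotypes in fed mice, 1 to 11 in fasted mice, and for the fasting change 12 to 17 calls among wild types, 10 to 23 among knockouts, with 0 to 1 for the interaction. Smaller groups have fewer mice behind each mean; otherwise the cause was not tested. With the replicate number as a block the counts were 17, 4, 14, 20 and 0 in the same order. Deviations of 21 same-numbered pairs had a median correlation of 0.07 (-0.25 to 0.23), and 6 were over 0.1. The 74 other pairs between groups had a median of -0.04 (-0.34 to 0.29), and 19 were over 0.1. Of the 16 mice, 4 correlated best with a mouse of their own number. These values do not show that the numbers pair the mice.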
